A study of Mus musculus with 8 samples.

Results

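Homeobox transcription factors bind DNA through a homeodomain and lay out the regions and cell types of the embryo, and their genes were measured in mouse medulloblastoma cells that were sorted for the expression of Sox2. The 112 genes were chosen by symbol, as the named members of the Pax, Lhx, Six-class, Nkx, Dlx, Pou, Meis, Pbx, Irx, Otx, En, Barhl, Emx, Gsx, Msx, Lmx1 and Hox families other than Nkx2-2, out of 22180 genes measured. All 112 symbols matched a RefSeq gene, and 12 further RefSeq genes of these families were not analysed here. The rule matched names and no measured values, but it was set with earlier results of these data known. As it went by name, it includes Pax genes with a shortened homeodomain (Pax2, Pax5 and Pax8) or none (Pax1 and Pax9).

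The cells came from tumours of Patched1+/- mice on a CD1 background crossed to Sox2-eGFP mice on a B6 background, a model in which loss of a Hedgehog receptor drives a tumour of the cerebellum. All animals were irradiated at birth with 3 Gy and were over 70 days of age, and both groups share these alleles and this treatment. Tumour cells were depleted of CD45+ and Ter119+ blood cells and sorted by eGFP, which reports Sox2, a transcription factor of neural stem and glial progenitor cells. There were 4 arrays of Sox2-eGFP+ cells and 4 of Sox2-eGFP- cells, and each array held RNA of 1 pool of 3 tumours.

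In the cerebellum, homeobox genes act in a sequence. Otx, En and Pax2 family genes mark out midbrain and hindbrain, and Pax6, Barhl1, Meis1 and En2 are then used by granule neuron progenitors, the Hedgehog-responsive cells from which these tumours arise. Lhx1 and Lhx5 are used by Purkinje cells. Homeobox genes of the Nkx family, with the bHLH factors Olig1 and Olig2, are used along the oligodendrocyte lineage, and Hox genes pattern the hindbrain and spinal cord behind the cerebellum.

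Values are log2 RMA values, 1 for each gene and array. Sox2 itself had values of 5.67, 6.07, 6.36 and 5.68 in Sox2-positive pools 1 to 4, against 4.05, 4.60, 4.49 and 4.04 in Sox2-negative pools 1 to 4 (log2 difference 1.65, SE 0.17, limma adjusted p = 2.53e-05), so the groups followed their labels. Over all genes, arrays correlated at 0.981 to 0.987 within the Sox2-positive group, at 0.973 to 0.984 within the Sox2-negative group and at 0.942 to 0.968 between the groups, and no array stood apart. The files give no detection call, so a guide to dim values was taken from the means of 1390 receptor genes of smell (Olfr, Vmn1r and Vmn2r), for which tumour cells have no known use. Their upper quartile was 5.80. Sox2 itself lay below this guide in Sox2-positive pools 1 and 4, so a value below it need not mean that a gene is not expressed. Of the 112 homeobox genes, 37 had a mean over all 8 arrays above 5.80.

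Of the 112 homeobox genes, 11 (9.82%) differed between the fractions at a limma adjusted p under 0.05, against 8.47% of all genes. In Sox2-positive cells 8 were lower (7.14%, against 2.52% of all genes) and 3 were higher (2.68%, against 5.96%). The lower genes were Lhx1, Pax6, Barhl2, Meis1, Barhl1, Pou4f1, En2 and Pbx3, and the higher genes were Gsx1, Pou3f1 and Irx2. The median log2 difference was -0.01 over the 112 and -0.03 over all genes, so most homeobox genes lay near no difference. Without Sox2-positive pool 1 the count of higher genes was 5, as Irx1 and Meis2 then passed too. The groups did not overlap for 19 of the 112 (17%, against 13.7% of all genes), and these 19 included all 11 called genes. The limma p-values measure the spread between pools of tumours, not between single animals. In sorted pools, fewer cells of a type and less RNA per cell cannot be told apart.

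**Figure D1:**
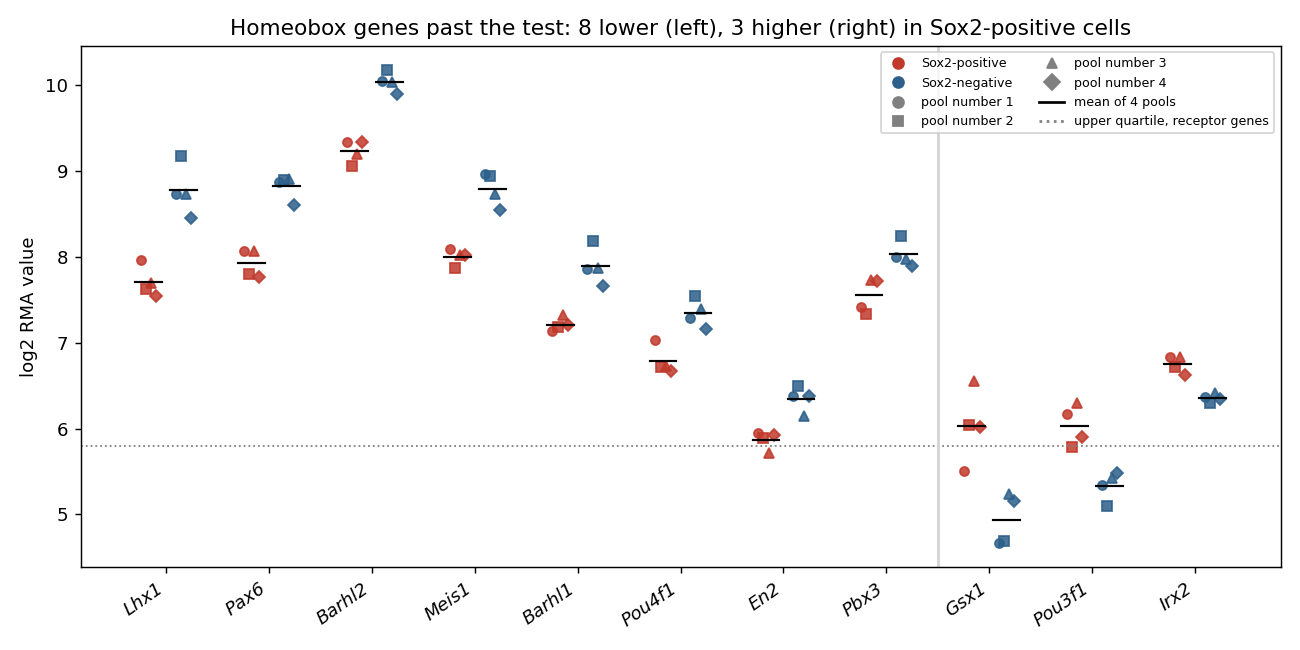
Log2 RMA values of the 11 homeobox genes past the test, with 1 point for each pool (marker shape gives the pool number in the labels), bars at the mean of 4 pools, Sox2-positive pools left of Sox2-negative pools for each gene, and the dotted line at 5.80, the upper quartile of the receptor genes. For each of the 11 genes the 2 groups do not overlap, and for Gsx1 and Pou3f1 all 4 Sox2-negative pools lie under the dotted line.

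The sequence around the start site is shown for Lhx1 and Pax6, which had the largest falls, for the paralogs Barhl1 and Barhl2, which fell together, and for Gsx1, which had the largest increase. Sequences are from RefSeq in the build GRCm38.p6, read 5′ to 3′ on the gene's strand, from 250 bases before to 50 bases after the start. Of the 11 called genes 8 matched the table, without En2, Pbx3 and Pou3f1. Pax6 is at chr2:105668646-105668945 (plus strand), the first of its 2 listed starts, and Barhl2 is at chr5:106458117-106458416 (minus strand). Lhx1 is at chr11:84525485-84525784 (minus strand), Barhl1 at chr2:28916619-28916918 (minus strand), the first of its 2 starts, and Gsx1 at chr5:147188446-147188745 (plus strand). Capitals mark matches to any of 3 motifs searched on both strands.
Lhx1: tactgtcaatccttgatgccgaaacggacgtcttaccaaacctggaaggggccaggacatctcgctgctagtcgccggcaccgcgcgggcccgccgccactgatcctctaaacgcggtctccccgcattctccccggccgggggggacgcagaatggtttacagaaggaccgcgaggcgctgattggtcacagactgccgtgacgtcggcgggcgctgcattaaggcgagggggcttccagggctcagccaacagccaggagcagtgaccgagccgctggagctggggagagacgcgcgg
Pax6: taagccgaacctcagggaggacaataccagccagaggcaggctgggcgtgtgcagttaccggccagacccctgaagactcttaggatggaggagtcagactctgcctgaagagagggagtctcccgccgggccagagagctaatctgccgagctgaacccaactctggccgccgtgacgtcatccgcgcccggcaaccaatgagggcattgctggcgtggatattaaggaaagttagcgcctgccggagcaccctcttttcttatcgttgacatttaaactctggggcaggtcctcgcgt
Barhl2: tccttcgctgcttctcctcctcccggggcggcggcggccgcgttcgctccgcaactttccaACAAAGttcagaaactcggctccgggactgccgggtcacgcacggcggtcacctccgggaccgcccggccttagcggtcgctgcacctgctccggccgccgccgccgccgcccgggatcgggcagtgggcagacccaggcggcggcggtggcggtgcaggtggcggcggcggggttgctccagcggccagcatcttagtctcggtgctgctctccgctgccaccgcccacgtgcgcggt
Barhl1: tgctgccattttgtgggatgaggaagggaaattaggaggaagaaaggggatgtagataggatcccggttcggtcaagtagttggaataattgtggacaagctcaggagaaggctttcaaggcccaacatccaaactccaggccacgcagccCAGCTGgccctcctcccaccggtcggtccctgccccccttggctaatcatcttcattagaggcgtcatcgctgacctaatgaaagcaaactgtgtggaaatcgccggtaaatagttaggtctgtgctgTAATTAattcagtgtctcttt
Gsx1: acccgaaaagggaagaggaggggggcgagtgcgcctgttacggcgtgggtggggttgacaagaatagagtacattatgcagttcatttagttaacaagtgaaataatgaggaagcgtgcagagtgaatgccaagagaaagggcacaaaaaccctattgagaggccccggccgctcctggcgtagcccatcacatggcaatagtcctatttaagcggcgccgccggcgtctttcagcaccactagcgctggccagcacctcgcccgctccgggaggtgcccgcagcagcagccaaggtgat

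The motifs were TAATTA, the core bound by many homeodomains, CTTTGT, a core bound by Sox factors, and CAGCTG, an E-box bound by bHLH factors. TAATTA and CAGCTG read the same on both strands. Barhl1 held TAATTA at position +30 from the start and CAGCTG at -99, and Barhl2 held CTTTGT on the reverse strand at -189. None of the 3 was found in these windows of Lhx1, Pax6 or Gsx1. Over the 8 called genes with a sequence, 1 held TAATTA, 1 held CTTTGT and 2 held CAGCTG, and no matches overlapped. Over all 32851 windows of the table the shares were 5.29%, 18.7% and 16.3%. Of these 8 windows 7 held more G and C than the median window (52.7%, 7 CpG), from 57.0% for Gsx1 to 78.3% for Pou4f1. The exception was Barhl1 (50.3%, 9 CpG), and its paralog Barhl2, which fell by a similar amount, had 73.7% and 42 CpG. In all 78 homeobox genes had a window, and called and other homeobox genes were not compared in G and C or in motifs.

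Genes used by granule neurons and their progenitors were lower in Sox2-positive cells. Pax6, a paired-type factor that granule neuron progenitors express, had values of 8.07, 7.80, 8.06 and 7.76 in Sox2-positive pools, against 8.87, 8.90, 8.91 and 8.60 in Sox2-negative pools (log2 difference -0.90, SE 0.11, limma adjusted p = 9.61e-05). The highest Sox2-positive pool lay 0.53 below the lowest Sox2-negative pool. Sox2-positive cells thus held 53.8% of the Pax6 level of Sox2-negative cells, a share that includes any compression by RMA.

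Barhl1 and Barhl2, a pair of related BarH-type factors of which Barhl1 is known from migrating and maturing granule neurons, fell together. For Barhl2 the Sox2-positive pools had 9.33, 9.06, 9.20 and 9.34, against 10.05, 10.18, 10.04 and 9.90 in Sox2-negative pools (log2 difference -0.81, SE 0.10, limma adjusted p = 9.67e-05). For Barhl1 they had 7.13, 7.19, 7.32 and 7.21, against 7.86, 8.18, 7.87 and 7.66 (log2 difference -0.68, SE 0.11, limma adjusted p = 0.00102). Sox2-negative pool 2 was the highest array for both. The 5 paired box genes Pax1, Pax3, Pax4, Pax7 and Pax9 did not pass the test, with log2 differences from -0.13 (Pax9) to 0.20 (Pax3). Pax3, a dorsal neural tube and neural crest factor, had groups that did not overlap, with 6.75, 6.74, 6.64 and 6.72 in Sox2-positive pools, against 6.59, 6.24, 6.61 and 6.61 in Sox2-negative pools, but its 95% interval ran from -0.02 to 0.41 (adjusted p = 0.301).

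The 6 granule neuron progenitor markers that are not homeobox genes (Atoh1, Zic1, Zic2, Mycn, Gli1 and Gli2) had the same direction as Pax6, Barhl1 and Barhl2, and all 6 were lower in Sox2-positive cells. Their median log2 difference was -0.75. With Pax6 and Barhl1 counted, 8 of 8 listed markers were lower, and the mean of the list lay between 7.57 and 7.81 in Sox2-positive pools, against 8.36 to 8.72 in Sox2-negative pools. The count was 5 without Sox2-positive pool 2, Sox2-positive pool 3 or Sox2-negative pool 1, each time without Atoh1, Gli1 and Gli2. All 8 markers had means above 5.80. The list was written with earlier results of these data known, and its part in the homeobox result was not tested.

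Among the 7 genes of midbrain and hindbrain patterning, En2 alone passed the test in the fit without pairing. En2, an engrailed factor used in cerebellar patterning and in granule cells, had 5.95, 5.89, 5.71 and 5.93 in Sox2-positive pools, against 6.38, 6.50, 6.15 and 6.38 in Sox2-negative pools (log2 difference -0.48, SE 0.10, limma adjusted p = 0.00641). Its paralog En1 had 4.81, 4.68, 4.73 and 4.78 in Sox2-positive and 4.63, 4.61, 4.49 and 5.41 in Sox2-negative pools (log2 difference -0.03, 95% interval -0.38 to 0.32, limma adjusted p = 0.945). In 7 of the 8 arrays En1 lay below 4.95, the median of the receptor genes, and Sox2-negative pool 4 was the exception.

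Otx1 and Otx2, head and midbrain factors of which Otx2 is also used in the rhombic lip, varied more between Sox2-positive pools than En1 and En2. The SD there was 0.44 for Otx1 and 0.57 for Otx2, against 0.06 for En1 and 0.11 for En2. Between Sox2-negative pools En1 and Otx2 both had an SD of 0.42. Otx2 had 7.42, 6.88, 6.87 and 6.04 in Sox2-positive pools, against 7.44, 7.86, 7.64 and 6.88 in Sox2-negative pools (log2 difference -0.65, 95% interval -1.19 to -0.11, limma adjusted p = 0.153). Otx1 had 7.05, 7.04, 7.53 and 7.95 in Sox2-positive pools, against 7.75, 7.50, 7.84 and 8.25 in Sox2-negative pools (log2 difference -0.44, 95% interval -0.87 to -0.02, limma adjusted p = 0.227). Pool 4 was the lowest for Otx2 and the highest for Otx1 in both fractions. The groups overlapped for both genes. Within each pool number the Sox2-positive value was the lower one in 4 of 4 pairs. The same held for genes far from the threshold, among them Hoxa6 (limma adjusted p = 0.628) and Irx4 (0.569). The differences were -0.01, -0.98, -0.77 and -0.84 for Otx2 and -0.70, -0.46, -0.31 and -0.29 for Otx1, for numbers 1 to 4. That equal numbers pair the pools was inferred from the data, and the labels do not state it. With the pool number as a block the adjusted p was 0.0111 for Otx2 and 0.0125 for Otx1, and both then counted as lower. Over 14 alternatives each was called in 2, with adjusted p from 0.0111 to 0.341 for Otx2 and from 0.0125 to 0.496 for Otx1. The other call came without Sox2-positive pool 1 for Otx2 (0.0414) and without Sox2-positive pool 4 for Otx1 (0.0452). Pax2, Pax5 and Pax8, early markers of the midbrain and hindbrain boundary, did not pass (log2 differences -0.21, -0.18 and 0.03), and all 3 had means below 5.80 in both groups.

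**Figure D2:**
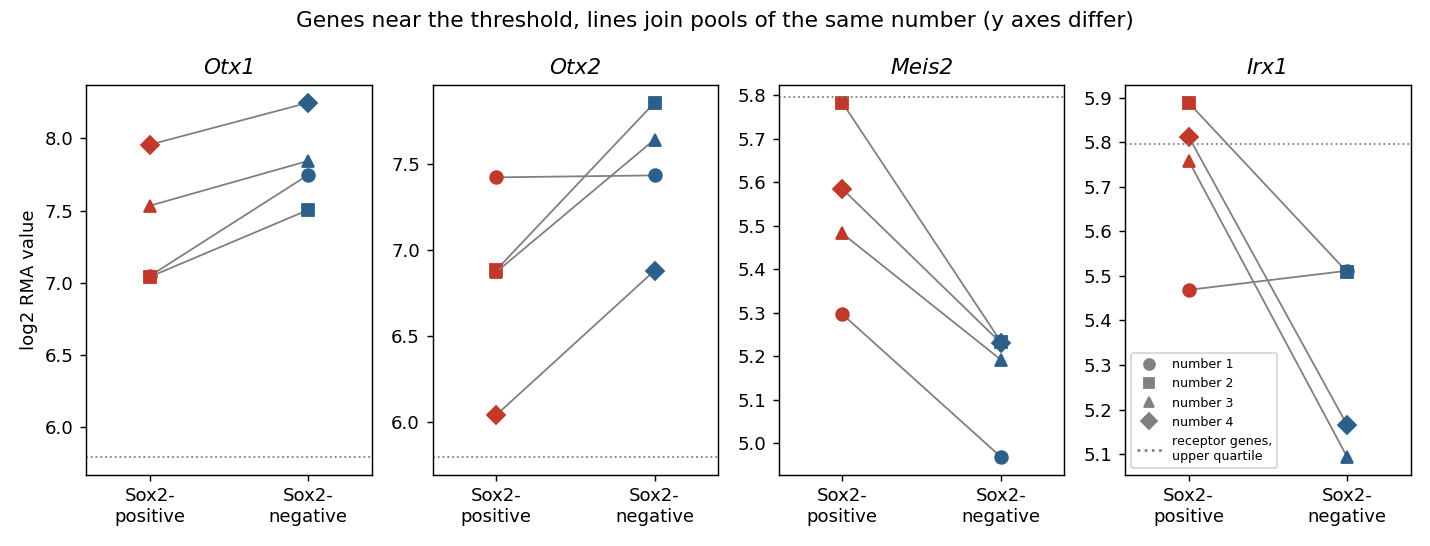
Log2 RMA values of Otx1, Otx2, Meis2 and Irx1, with Sox2-positive pools on the left and Sox2-negative pools on the right of each panel, a line joining pools of the same number, marker shape giving the number, and a separate y axis for each gene. Every line rises to the Sox2-negative side for Otx1 and Otx2 (for Otx2 number 1 by 0.01), every line falls for Meis2, and for Irx1 the line of number 1 is nearly flat.

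The largest fall among the homeobox genes was that of Lhx1, a LIM-class factor of Purkinje cells and of several classes of spinal and hindbrain neurons. It had 7.97, 7.62, 7.69 and 7.54 in Sox2-positive pools, against 8.73, 9.18, 8.74 and 8.46 in Sox2-negative pools (log2 difference -1.07, SE 0.14, limma adjusted p = 0.000217). Sox2-negative pool 2 was again the highest array, and Sox2-positive cells held 47.6% of the level. Lhx5, which acts with Lhx1 in Purkinje cells, was dim in every array (3.90 to 4.30) and did not pass (log2 difference 0.05). Of the 9 measured markers of inhibitory interneurons and Purkinje cells, 2 were higher and Lhx1 alone was lower, and the list's median log2 difference was -0.07. The higher markers were Car8 (log2 difference 1.24) and Gad1 (0.43). Gad1 had all its values below 5.80. Its call was lost without Sox2-positive pool 2, 3 or 4, and without Sox2-negative pool 1 or 3. The mean of the list lay between 5.49 and 5.60 in Sox2-positive pools and between 5.48 and 5.56 in Sox2-negative pools.

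The other 9 LIM-class genes did not pass, with log2 differences from -0.21 (Lhx9) to 0.07. Lhx2, a forebrain and progenitor factor, averaged 6.85 ± 0.03 in Sox2-positive pools, against 6.91 ± 0.07 in Sox2-negative pools (SD, n = 4 each; log2 difference -0.06, 95% interval -0.24 to 0.11, limma adjusted p = 0.733). Lmx1a and Lmx1b, roof plate and midbrain factors, both had log2 differences of -0.08. The marker list of unipolar brush cells and the rhombic lip, which holds Lmx1a and Otx2, had 0 of 5 measured genes past the limma test and 2 at an unadjusted p under 0.05. With the pool number as a block 2 of the 5 passed, Otx2 as lower and Wls as higher in Sox2-positive cells. Without 1 pool, Otx2 passed when Sox2-positive pool 1 was left out, and Wls when Sox2-positive pool 4 or Sox2-negative pool 2 was. Its mean lay between 5.40 and 5.74 in Sox2-positive pools, against 5.52 to 5.76 in Sox2-negative pools.

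TALE-class factors, among them Meis, Pbx and Irx, carry extra residues in the homeodomain. Meis and Pbx proteins bind DNA as partners of each other and of Hox proteins. Of the 12 Meis, Pbx and Irx genes measured, 2 were lower and 1 was higher. TALE-class genes outside the 112, such as Pknox2, are not counted here. Of the 12, 8 had an unadjusted p under 0.05, against 20.1% of all genes and 20.5% of the 112. The directions were mixed, also within families. Meis1, which in mouse granule neuron progenitors acts upstream of Pax6, had 8.09, 7.87, 8.02 and 8.02 in Sox2-positive pools, against 8.97, 8.94, 8.73 and 8.55 in Sox2-negative pools (log2 difference -0.80, SE 0.11, limma adjusted p = 0.000249). Pbx3, a Meis partner, had 7.42, 7.34, 7.74 and 7.72 in Sox2-positive pools, against 7.995, 8.25, 7.98 and 7.90 in Sox2-negative pools (log2 difference -0.47, SE 0.12, limma adjusted p = 0.0198). The call of Pbx3 was the least firm of the 11. The gene was no longer called when Sox2-positive pool 1, Sox2-positive pool 2 or Sox2-negative pool 2 was left out (adjusted p = 0.0564, 0.0728 and 0.0526), with a range of 0.0046 to 0.0728 over all alternatives.

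The difference of Meis2 had the opposite sign to that of Meis1. It had 5.30, 5.78, 5.48 and 5.59 in Sox2-positive pools, against 4.97, 5.23, 5.19 and 5.23 in Sox2-negative pools (log2 difference 0.38, 95% interval 0.14 to 0.62, limma adjusted p = 0.0519). The groups did not overlap. Sox2-positive was the higher in 4 of 4 pool numbers, as it also was for Irx3 (limma adjusted p = 0.573) and Nkx1-1 (0.548), which were not called. With the number as a block Meis2 was called (adjusted p = 0.0177). It was called in 5 of 13 alternatives, with adjusted p from 0.0177 to 0.169. All 8 values lay below 5.80, so the difference may be understated. Meis3 (log2 difference -0.08), Pbx4 (0.14) and Pbx2 (-0.26, groups not overlapping) did not pass.

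Iroquois genes, which pattern the neural plate and the heart and stand in 2 clusters of neighbours (Irx1, Irx2 and Irx4, and Irx3, Irx5 and Irx6), gave 1 called gene. Irx2 had 6.84, 6.72, 6.83 and 6.62 in Sox2-positive pools, against 6.37, 6.30, 6.41 and 6.34 in Sox2-negative pools (log2 difference 0.40, SE 0.09, limma adjusted p = 0.00998), a 1.32-fold higher level. Its neighbour Irx1 had 5.47, 5.89, 5.76 and 5.81 in Sox2-positive pools, against 5.51, 5.51, 5.09 and 5.17 in Sox2-negative pools (log2 difference 0.41, 95% interval 0.15 to 0.68, limma adjusted p = 0.0579). Irx1 passed without Sox2-positive pool 1 (adjusted p = 0.0239) or Sox2-negative pool 2 (0.0418), with a range of 0.0239 to 0.177 over 13 alternatives. In the other cluster Irx5 and Irx6 had log2 differences of 0.24 and 0.23 (adjusted p = 0.196 and 0.179). Irx3 had 0.10, with 0.11 for its other probe set, and Irx4 had -0.12. In all, 5 of 6 differences were above 0 and 1 passed the test.

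**Figure D3:**
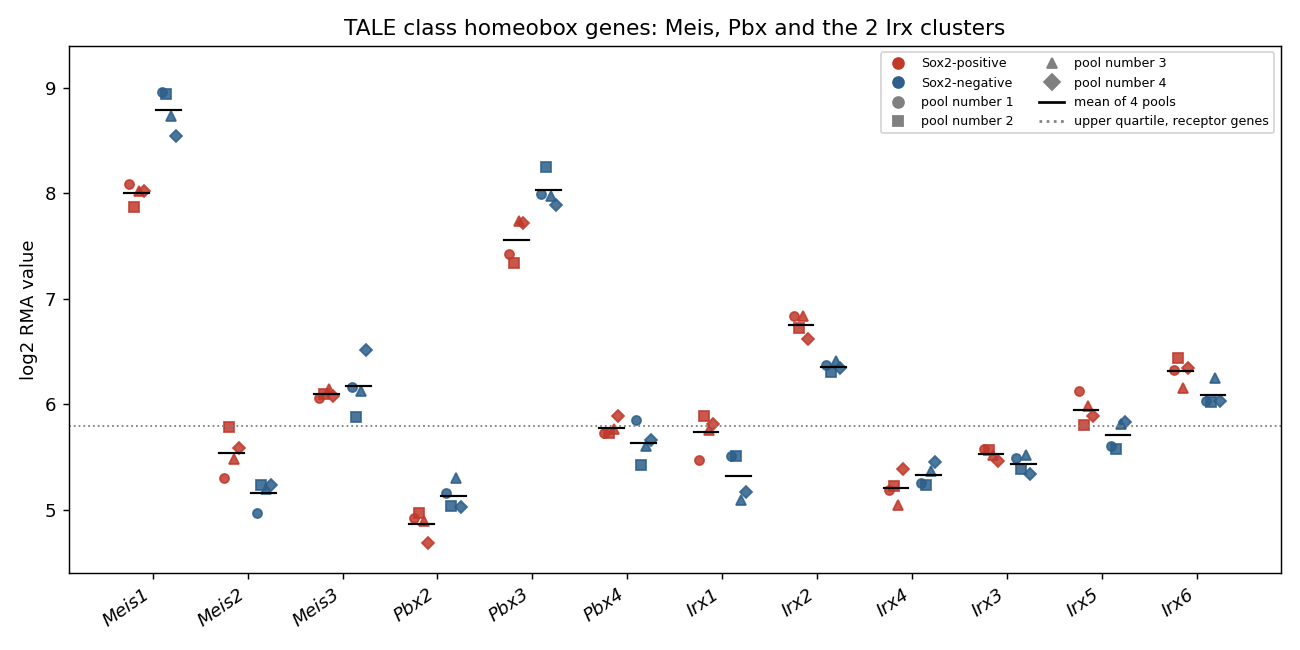
Log2 RMA values of the 12 Meis, Pbx and Irx genes, with 1 point for each pool and bars at the mean of 4 pools. Sox2-positive pools stand left of Sox2-negative pools for each gene, marker shape gives the pool number, and the dotted line is at 5.80. Meis1 and Pbx3 lie lower and Irx2 higher in Sox2-positive pools without overlap, and Meis2 lies higher without overlap but did not pass the test.

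POU-class factors, which pair a POU-specific domain with a homeodomain, gave 1 gene in each direction among 11. Pou3f1, also known as Oct6, a factor of Schwann cells before myelination and of oligodendrocyte progenitors, had 6.17, 5.78, 6.29 and 5.90 in Sox2-positive pools, against 5.34, 5.10, 5.42 and 5.48 in Sox2-negative pools (log2 difference 0.70, SE 0.12, limma adjusted p = 0.00246). It was 1.62-fold higher, and since all Sox2-negative values lay below 5.80 the fold may be understated. Pou4f1, also known as Brn3a, a factor of sensory and other postmitotic neurons, had 7.04, 6.72, 6.73 and 6.68 in Sox2-positive pools, against 7.29, 7.54, 7.40 and 7.17 in Sox2-negative pools (log2 difference -0.56, SE 0.11, limma adjusted p = 0.00491). Its paralog Pou4f3 had a log2 difference of 0.26 (adjusted p = 0.103).

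The POU factors Pou3f2, Pou3f3 and Pou5f1, known as partners of Sox2, did not pass the test, unlike Pou3f1 above. Pou3f2 and Pou3f3, which neural progenitors use with Sox2, had means of 6.59 ± 0.11 in Sox2-positive pools, against 6.74 ± 0.10 in Sox2-negative pools for Pou3f2 (log2 difference -0.15, 95% interval -0.35 to 0.05, limma adjusted p = 0.403; SD, n = 4 each). Pou3f3 had 7.15 ± 0.16 in Sox2-positive pools, against 7.16 ± 0.22 in Sox2-negative pools (log2 difference -0.01, 95% interval -0.27 to 0.25, limma adjusted p = 0.981). Pou5f1, the partner of Sox2 in pluripotent cells, lay below 5.80 in both groups on average, at 5.68 ± 0.12 in Sox2-positive pools, against 5.77 ± 0.16 in Sox2-negative pools (log2 difference -0.09, 95% interval -0.31 to 0.13, limma adjusted p = 0.691).

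Gsx1, a factor of dorsal hindbrain, spinal cord and ventral forebrain progenitors, had the largest increase. It had 5.50, 6.04, 6.55 and 6.02 in Sox2-positive pools, against 4.66, 4.69, 5.24 and 5.16 in Sox2-negative pools (log2 difference 1.09, SE 0.19, limma adjusted p = 0.00233). Sox2-positive pool 3 was the highest array and pool 1 the lowest of its group, and pool number 3 was also the highest of the Sox2-negative pools. The fold was 2.13, and with all Sox2-negative values under 5.80 it may be understated. Its paralog Gsx2 did not pass (log2 difference -0.12, adjusted p = 0.645).

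The other 21 genes of the NK, Dlx, Emx and Msx families did not pass, with log2 differences from -0.15 (Dlx3) to 0.25 (Nkx2-3). Nkx6-1 and Nkx6-2, ventral factors that in the spinal cord bear on oligodendrocyte formation, had means of 5.06 ± 0.14 in Sox2-positive pools, against 5.02 ± 0.06 in Sox2-negative pools for Nkx6-1 (log2 difference 0.05, 95% interval -0.15 to 0.25, limma adjusted p = 0.833). Nkx6-2 had 5.79 ± 0.17 in Sox2-positive pools, against 5.93 ± 0.04 in Sox2-negative pools (log2 difference -0.14, 95% interval -0.35 to 0.07, limma adjusted p = 0.462). The forebrain factors Dlx2, Emx2 and Nkx2-1 had log2 differences of 0.09, 0.02 and -0.08, and the limma 95% intervals of all 3 held 0. The 5 Six-class genes, factors of eye, ear and muscle, lay between -0.12 and 0.04.

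None of the 36 Hox genes passed the limma test (0 of 36, with 2 at an unadjusted p under 0.05), and their median log2 difference was 0.00. By cluster the medians were -0.01 over 9 Hoxa, 0.02 over 10 Hoxb, 0.01 over 9 Hoxc and 0.00 over 8 Hoxd genes. Of the 36, 4 had a mean above 5.80 (Hoxd10, Hoxc4, Hoxa6 and Hoxd8), so for most the test compared values that may be background. The largest difference was that of Hoxa2, the Hox gene used furthest forward in the hindbrain, at 5.76, 5.93, 6.13 and 5.66 in Sox2-positive pools, against 5.37, 5.42, 5.71 and 5.73 in Sox2-negative pools (log2 difference 0.31, 95% interval 0.05 to 0.57, limma adjusted p = 0.162). Hoxa2 passed under 0 of 13 alternatives. Hoxa5 had 4.80 ± 0.05 in Sox2-positive pools, against 4.79 ± 0.17 in Sox2-negative pools (log2 difference 0.01, 95% interval -0.19 to 0.22, limma adjusted p = 0.959).

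**Figure D4:**
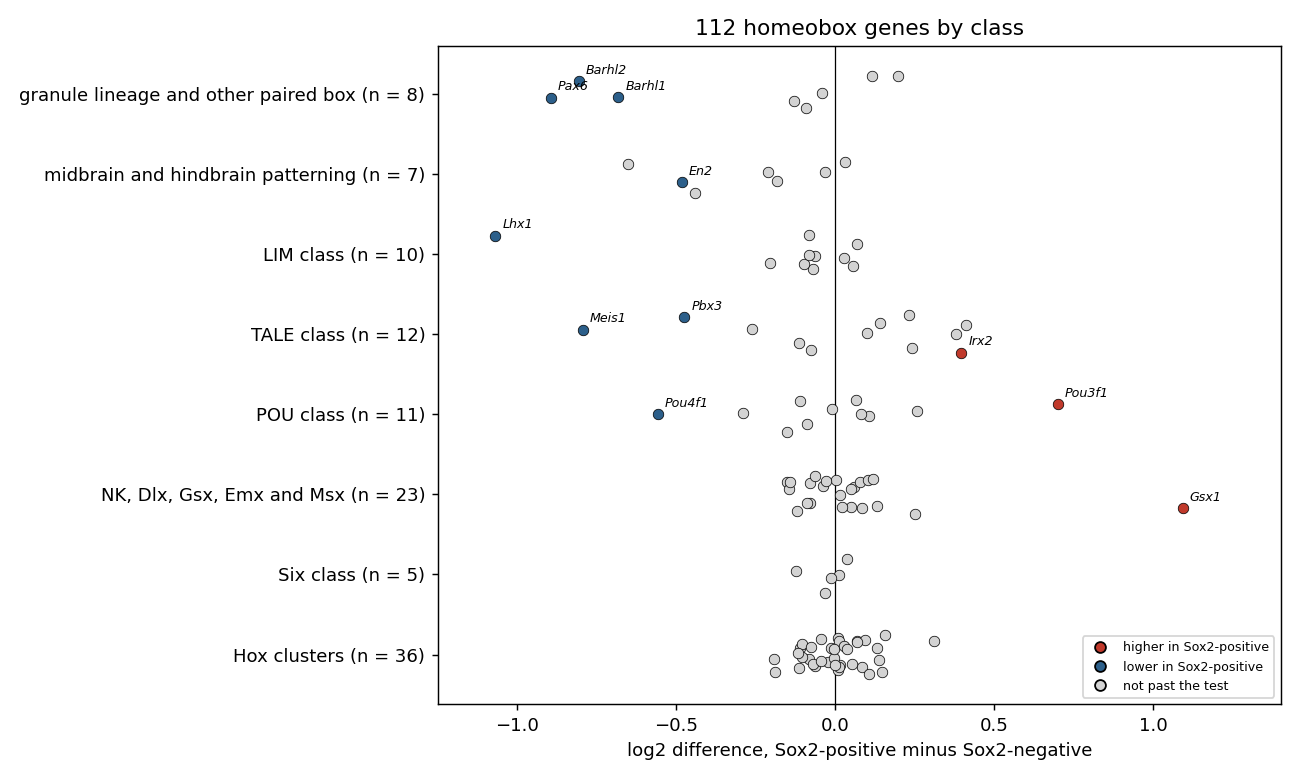
Log2 differences (Sox2-positive minus Sox2-negative) of the 112 homeobox genes by class, 1 point a gene, coloured by whether the gene was higher, lower or not past the limma test, with vertical scatter within a class for legibility. The 8 lower genes lie in 5 classes and the 3 higher genes in 3, and the Hox genes lie between -0.19 and 0.31.

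Members that stood above the guide to dim values held most of the calls. Of the 37 such genes 9 were called (24.3%, against 13.7% of all 11548 genes above the same guide). Lower genes made up 8 of them (21.6%, against 3.97%) and higher genes 1 (2.7%, against 9.72%). The guide used the mean over all arrays. Of the 75 not above it, 2 were called (2.67%, against 2.8% of all genes not above the guide). These were Gsx1 and Pou3f1, both of them higher.

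Homeobox genes outside the families above were also read from a fixed list. Of 77 measured, 6 were higher and 7 lower, with a median log2 difference of -0.05. In all 13 were called, 7 without Sox2-positive pool 2, and 14 with the pool number as a block, which added Onecut3. Over all genes 8.47% were called, 5.96% as higher and 2.52% as lower. Nkx2-2, a factor of oligodendrocyte progenitors that was left out of the 112, had 6.79, 7.78, 7.19 and 7.01 in Sox2-positive pools, against 5.48, 5.88, 5.70 and 5.44 in Sox2-negative pools (log2 difference 1.57, SE 0.18, limma adjusted p = 5.55e-05). Prrx1, a paired-related factor of mesenchyme, was 2.25-fold higher (log2 difference 1.17, SE 0.10, limma adjusted p = 4.88e-06). Pknox2, a TALE-class relative of the Meis genes, was 1.90-fold higher (log2 difference 0.93, SE 0.12, limma adjusted p = 0.000202), and Dbx2, a factor of intermediate neural tube progenitors, was higher too (log2 difference 0.59, SE 0.10, limma adjusted p = 0.00196). For Prrx1 and Dbx2 all Sox2-negative values lay below 5.80. Onecut2, a factor of several neuronal classes, fell by 0.74 on the log2 scale (limma adjusted p = 0.000377), and Uncx fell by 0.66 (0.00342).

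Of 30 regulators and cofactors of homeobox proteins, 2 were higher and 2 lower, with a median log2 difference of -0.11 (4 called in all, 7 with the pool number as a block and 7 without Sox2-negative pool 2). The share called over all genes was 8.47%. Eya1, a coactivator phosphatase that binds Six-class factors, was 2.80-fold higher, at 8.70, 8.69, 8.88 and 8.40 in Sox2-positive pools, against 7.33, 7.32, 6.92 and 7.14 in Sox2-negative pools (log2 difference 1.49, SE 0.12, limma adjusted p = 2.91e-06). None of the 5 Six-class genes measured passed the limma test (0 of 5, with 0 at an unadjusted p under 0.05). The LIM-domain binding proteins went opposite ways, with Ldb2 higher (log2 difference 0.48, SE 0.08, limma adjusted p = 0.00206) and Ldb1, the main partner of Lhx factors, lower (log2 difference -0.41, SE 0.09, limma adjusted p = 0.0111). The corepressor gene Tle1 was lower (adjusted p = 0.0333), a call lost under 6 of 14 alternatives (highest adjusted p = 0.106).

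Part of the markers of glial cells were also higher in Sox2-positive cells. All 7 oligodendrocyte progenitor markers were higher in Sox2-positive cells, and the mean of that list lay between 9.09 and 9.65 in Sox2-positive pools, against 6.23 to 6.33 in Sox2-negative pools. Of 8 astrocyte and Bergmann glia markers 4 were higher (6.65 to 7.11, against 5.96 to 6.06), and of 5 mature oligodendrocyte markers 2 were higher, Mbp and Cldn11 (6.17 to 7.44, against 5.92 to 6.10). Of these 5, none passed the limma test without Sox2-positive pool 4 (0 of 5), and 1 passed without Sox2-negative pool 1 or with a robust variance trend. Of 7 markers of pericytes and meninges 2 were higher, Rgs5 and Cspg4, the second of them also an oligodendrocyte progenitor marker (5.74 to 5.88, against 5.48 to 5.59). Cspg4 alone passed without Sox2-positive pool 4 or with the mean of probe sets. None of the 6 microglia and macrophage, 6 endothelial, 5 choroid plexus and ependyma markers or the 1 red blood cell marker measured passed the limma test (0 of 18, with 3 at an unadjusted p under 0.05). With the pool number as a block, or without Sox2-negative pool 1, the choroid plexus marker Ttr passed, as lower in Sox2-positive cells. The mean of the microglia list lay between 5.41 and 5.53 in Sox2-positive pools, against 5.39 to 5.64 in Sox2-negative pools, that of the endothelial list between 5.29 and 5.43, against 5.36 to 5.50, and that of the choroid plexus list between 5.98 and 6.08, against 6.02 to 6.52. The part of these cell types in the homeobox result was not tested.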

How the data were processed

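RNA of sorted medulloblastoma cells was measured on 8 Affymetrix arrays, 4 for each fraction. The deposited table holds 1 log2 value for each probe set on each array. Per the submitters' processing notes, the authors used RMA in Affymetrix Expression Console (version 1.2.0.20). RMA corrects background, brings arrays to a common distribution and summarises probes, which compresses folds of dim genes. The log2 scale of the deposited values was read from their range (2.51 to 13.6). For genome build and annotation version, the sources used here give nothing.

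The platform annotation gave 23521 of 41345 probe sets 1 symbol, 1814 several and 16010 none. For each of 22180 symbols the probe set with the highest mean over 8 arrays was taken, with no filter on dim genes. A further 14 probe sets pair a symbol of these families with another gene and were not analysed here. Probe sets were set against each other in level for that choice and for the guide to dim values alone.

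The test was that of limma 3.58.1 (R 4.3.3), with lmFit, eBayes and the group as single term, two-sided, with Benjamini-Hochberg adjustment over all 22180 genes and a threshold of 0.05. Differences are Sox2-positive minus Sox2-negative. The procedure was checked on simulated data.

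For arrays of equal pool number, the correlations of deviations from the group means were 0.164, 0.114, 0.177 and 0.241 (highest between different numbers 0.161), so the numbers were taken to pair the pools, on the data and not on the labels. The own number was the best match for 4 of 4 Sox2-positive pools and 3 of 4 Sox2-negative pools, so the pairing is uncertain. The fit with the number as a block is given where it changes a call.

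Named genes were all called homeobox genes, those of 25 genes set in every case that were analysed here, the 5 largest differences not called, and up to 6 called genes from each of the lists of other homeobox genes and of cofactors. A few more members are named as the extremes or paralogs of a group, chosen after their values were seen. Members and lists were chosen with earlier results of these data known.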

Additional observations from a re-analysis of the deposited data

Results flagged for a closer look

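In each of 78 sets of 4 pools (39 named genes in 2 groups), the highest or lowest pool was compared with the rest, and 7 sets had 1 pool far from the other 3. Chance gives about 1 in 20. Pax6 had 8.60 in Sox2-negative pool 4, against 8.87 to 8.91 in the other 3 Sox2-negative pools, and Pou4f1 had 7.04 in Sox2-positive pool 1, against 6.68 to 6.73. En1 had 5.41 in Sox2-negative pool 4, against 4.49 to 4.63, and Meis2 had 4.97 in Sox2-negative pool 1, against 5.19 to 5.23. Nkx2-1 had 5.87 in Sox2-positive pool 1, against 5.48 to 5.51. Of the cofactors, Ldb2 had 6.19 in Sox2-positive pool 4, against 6.29 to 6.31, and Ldb1 had 9.17 in Sox2-negative pool 1, against 8.91 to 8.96. The calls of Pax6 and Pou4f1 held without the pool that stood apart.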

How the results depend on the processing

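Of the 11 called homeobox genes, 10 kept their direction and call under every alternative in which they were tested, 14 for most and 13 for Gsx1 and Pou3f1, which the filter on dim genes left out. Pbx3 lost its call without each of 3 pools. The count of called homeobox genes was 11 in the main setting, 12 with quantile normalization, a variance trend or array weights, 11 with the mean of probe sets, 9 of 37 with dim genes left out (24.3%, against 16% of all genes so tested) and 14 with the replicate number as a block. The block added Meis2, Otx1 and Otx2, lost none of the 11 and changed no call of the other named genes. Leaving out 1 pool at a time gave 10 to 13 homeobox genes, 3 to 5 higher and 7 to 9 lower, 1304 to 1835 genes in all, 7 to 12 other homeobox genes and 3 to 7 cofactors. With dim genes left out 1 homeobox gene was higher and 8 other homeobox genes were called, as fewer genes were tested, and the block gave 7 cofactors (the cause was not tested). Differences near 0 turned sign for genes not called. With array weights these were En1 (0.00089), Pou3f3 (0.053) and Emx2 (-0.017), and with quantile normalization En1 (0.0033). With 1 pool left out En1 ran from -0.13 to 0.18, Pou3f3 from -0.070 to 0.10, Emx2 from -0.066 to 0.13 and Hoxa5 from -0.023 to 0.098. Most Hox, Nkx and Dlx genes lay in the range of the receptor genes, where a difference may be missed.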

Other observations

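The 8 lower homeobox genes did not have the same order of pools in the 2 fractions. Among the Sox2-positive pools, pool 1 was the highest for 5 of the 8, and among the Sox2-negative pools, pool 2 was the highest for 6 and pool 4 the lowest for 7. The mean of the 6 granule neuron progenitor markers that are not homeobox genes was 7.88, 7.60, 7.70 and 7.92 in Sox2-positive pools 1 to 4, against 8.58, 8.79, 8.36 and 8.44 in Sox2-negative pools 1 to 4. Sox2-negative pool 2 was thus also the highest for these markers, while the lowest was Sox2-negative pool 3.

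Of the 19 homeobox genes whose groups did not overlap, 8 did not pass the test. Besides Meis2 these were Pou4f3, Pbx2, Pax3, Hoxd9, Hoxd13, Dlx3 and Hoxc5, with log2 differences between -0.26 and 0.26. Hoxb5 and Nkx1-2, like Irx3, had a further probe set, and neither probe set of either gene passed (log2 differences -0.08 and -0.01 for Hoxb5, and 0.01 and 0.11 for Nkx1-2).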
